A study of Mus musculus with 96 samples.

Results

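The genes described are 10 that stand for the urea cycle and the periportal zone of the liver, taken as named rows of a count table of 47373 genes: Cps1, Otc, Ass1, Asl, Arg1, Nags, Hal, Sds, Gls2 and Cyp2f2. All 10 were found and passed the filter on low counts in every comparison. Their levels were read in 96 libraries from the livers of 12 male B6C3F1 mice aged 10 to 11 weeks, a hybrid strain used in toxicology. Of these animals, 6 drank water with phenobarbital at 600 ppm for 7 days and 6 were controls at 0 ppm. Phenobarbital, a barbiturate, switches on the receptor CAR in hepatocytes. Each liver was divided over 8 preservation states, which gives 16 groups of 6 libraries. The reference state was frozen tissue of mixed lobes, and the fixed portions were also made from frozen liver. An ethanol state spent 3 months in 70% ethanol. The 18-hour formalin state spent 18 hours in 10% formalin and then stayed in 70% ethanol up to 3 months, while the 3-month formalin state stayed in formalin throughout. From 3-month formalin tissue came 4 further states. The TAE state is RNA isolated from it and kept in Tris-acetate-EDTA buffer at 70 °C for 30 minutes. The other 3 began with tissue at 55 °C for 18 hours: with an organocatalyst and then an AllPrep kit, with the catalyst and then a PureLink kit, or with no catalyst and then AllPrep (heat only).

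The urea cycle turns toxic ammonia into urea, and in mouse liver it runs mainly in the periportal hepatocytes, which receive blood from the gut first. Cps1 and Otc encode its mitochondrial steps (carbamoyl phosphate synthetase and ornithine transcarbamylase). Ass1, Asl and Arg1 encode the cytosolic steps that make argininosuccinate, split it to arginine and release urea. Nags makes N-acetylglutamate, the activator that the Cps1 enzyme requires. Hal (histidine ammonia-lyase), Sds (serine dehydratase) and Gls2 (liver-type glutaminase) release ammonia from amino acids, and Cyp2f2, a P450 with no part in the cycle, is a common periportal marker.

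Promoter windows of 5 of the 10 genes matched a table of RefSeq gene starts on GRCm38.p6. The windows of Ass1, the member with the largest differences under phenobarbital, and of Otc and Hal, for which no difference passed the test, are printed to show what the sequences around these starts hold. Each runs from 250 bases before to 50 bases after the start, on the plus strand. Capitals mark matches, on both strands, to the TATA box (TATAAA), the CCAAT box (CCAAT), the GC box (GGGCGG), a C/EBP-type site (TTGCNNAA) and 2 nuclear receptor half-sites (AGGTCA or else AGTTCA). No 2 of these matches overlap. The Ass1 window is chr2:31470020-31470319, the Otc window chrX:10252055-10252354 and the Hal window chr10:93488518-93488817.
Ass1: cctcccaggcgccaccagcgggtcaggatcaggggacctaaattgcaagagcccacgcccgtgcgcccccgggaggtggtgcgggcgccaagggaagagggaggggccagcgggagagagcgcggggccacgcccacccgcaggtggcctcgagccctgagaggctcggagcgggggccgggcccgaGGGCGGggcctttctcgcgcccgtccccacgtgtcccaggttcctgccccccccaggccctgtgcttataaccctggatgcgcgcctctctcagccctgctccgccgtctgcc
Otc: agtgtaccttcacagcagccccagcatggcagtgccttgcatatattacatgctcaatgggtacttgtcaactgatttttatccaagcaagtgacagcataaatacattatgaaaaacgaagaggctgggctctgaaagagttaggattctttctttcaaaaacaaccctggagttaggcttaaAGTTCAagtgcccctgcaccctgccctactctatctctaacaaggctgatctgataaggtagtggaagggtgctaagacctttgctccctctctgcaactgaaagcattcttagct
Hal: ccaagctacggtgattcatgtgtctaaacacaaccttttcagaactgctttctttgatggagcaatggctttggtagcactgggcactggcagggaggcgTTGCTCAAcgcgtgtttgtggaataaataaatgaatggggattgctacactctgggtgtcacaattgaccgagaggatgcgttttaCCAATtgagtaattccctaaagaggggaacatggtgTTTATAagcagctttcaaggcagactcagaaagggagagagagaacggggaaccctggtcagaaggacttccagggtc
The Ass1 window holds 1 match to GGGCGG, the core of a GC box, which 35.7% of all 32851 promoter windows in the table hold. Otc holds 1 match to AGTTCA, a form of the nuclear receptor half-site found in 14% of windows. Hal holds TATAAA (on the minus strand, 13.6% of windows), CCAAT (37.4%) and TTGCNNAA (10.8%). AGGTCA, present in 16.3% of windows, matched in none of the 3. It has 1 match each in the windows of Nags and Cyp2f2, which are not printed. No data on factor binding were analysed here, so these matches describe the letters only.

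Library totals ran from 1264563 to 18442730 (median 11913138.5), and the shallowest was control animal 8A in 3-month formalin. Counts of the members ran from 39 for Nags in that library to 117501 for Cps1 in a frozen phenobarbital liver. Levels are given as CPM, counts brought to a common library size, after TMM scaling over all libraries. Hepatocyte identity was checked with Alb, Apoa1, Apob, Ttr and Fgb, none of which was at 0. Their summed level was 98074 to 117997 CPM in frozen controls. None of the 3 kidney markers averaged 1 CPM. Exons of Nags, Sds, Gls2 and Cyp2f2 overlap genes on the opposite strand (Gm11586 for Nags, Gm15690 and Plbd2 for Sds, Spryd4 for Gls2, Gm15883 for Cyp2f2). Since the strand setting of the counting is not given in the sources used here, reads of those overlaps may be shared, and Plbd2 held 58778 counts over all libraries against 77409 for Sds.

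Per kilobase of exon, Cps1 (ENSMUSG00000025991, chromosome 1, 67123026 to 67231259 on GRCm38) had the highest level in frozen controls, at 1217 ± 146 CPM per kb (SD, n = 6). Ass1 (ENSMUSG00000076441, chromosome 2, 31470207 to 31520672) followed at 513 ± 85.3, and its range overlapped that of Cyp2f2 (ENSMUSG00000052974, chromosome 7, 27119909 to 27133660) at 480 ± 36.5. Arg1 (ENSMUSG00000019987, chromosome 10, 24915221 to 24927484) stood at 383 ± 25.3 CPM per kb and did not overlap Cyp2f2 above it or Otc below it. Otc (ENSMUSG00000031173, chromosome X, 10252305 to 10321024) stood at 114 ± 11.3.

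Below Otc the ranges per kilobase ran into each other. Hal (ENSMUSG00000020017, chromosome 10, 93488768 to 93519304) stood at 73.8 ± 9.16 CPM per kb and Gls2 (ENSMUSG00000044005, chromosome 10, 128194457 to 128210004) at 72.6 ± 8.92. Asl (ENSMUSG00000025533, chromosome 5, 130011258 to 130029247) was at 54.3 ± 6.03 and Sds (ENSMUSG00000029597, chromosome 5, 120476526 to 120483932) at 51.7 ± 19.6, the widest spread of these 4. Nags (ENSMUSG00000048217, chromosome 11, 102145513 to 102149477) was lowest, at 21.3 ± 1.41, without overlap with any other member.

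Summed over the 5 cycle enzymes Cps1, Otc, Ass1, Asl and Arg1, frozen controls held 8291 to 10593 CPM, with a median of 9932. Cps1 alone made up 69% to 72.2% of that sum. With phenobarbital the sum was 7142 to 11301 CPM, with a median of 8499, and the ranges overlapped.

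**Figure D1:**
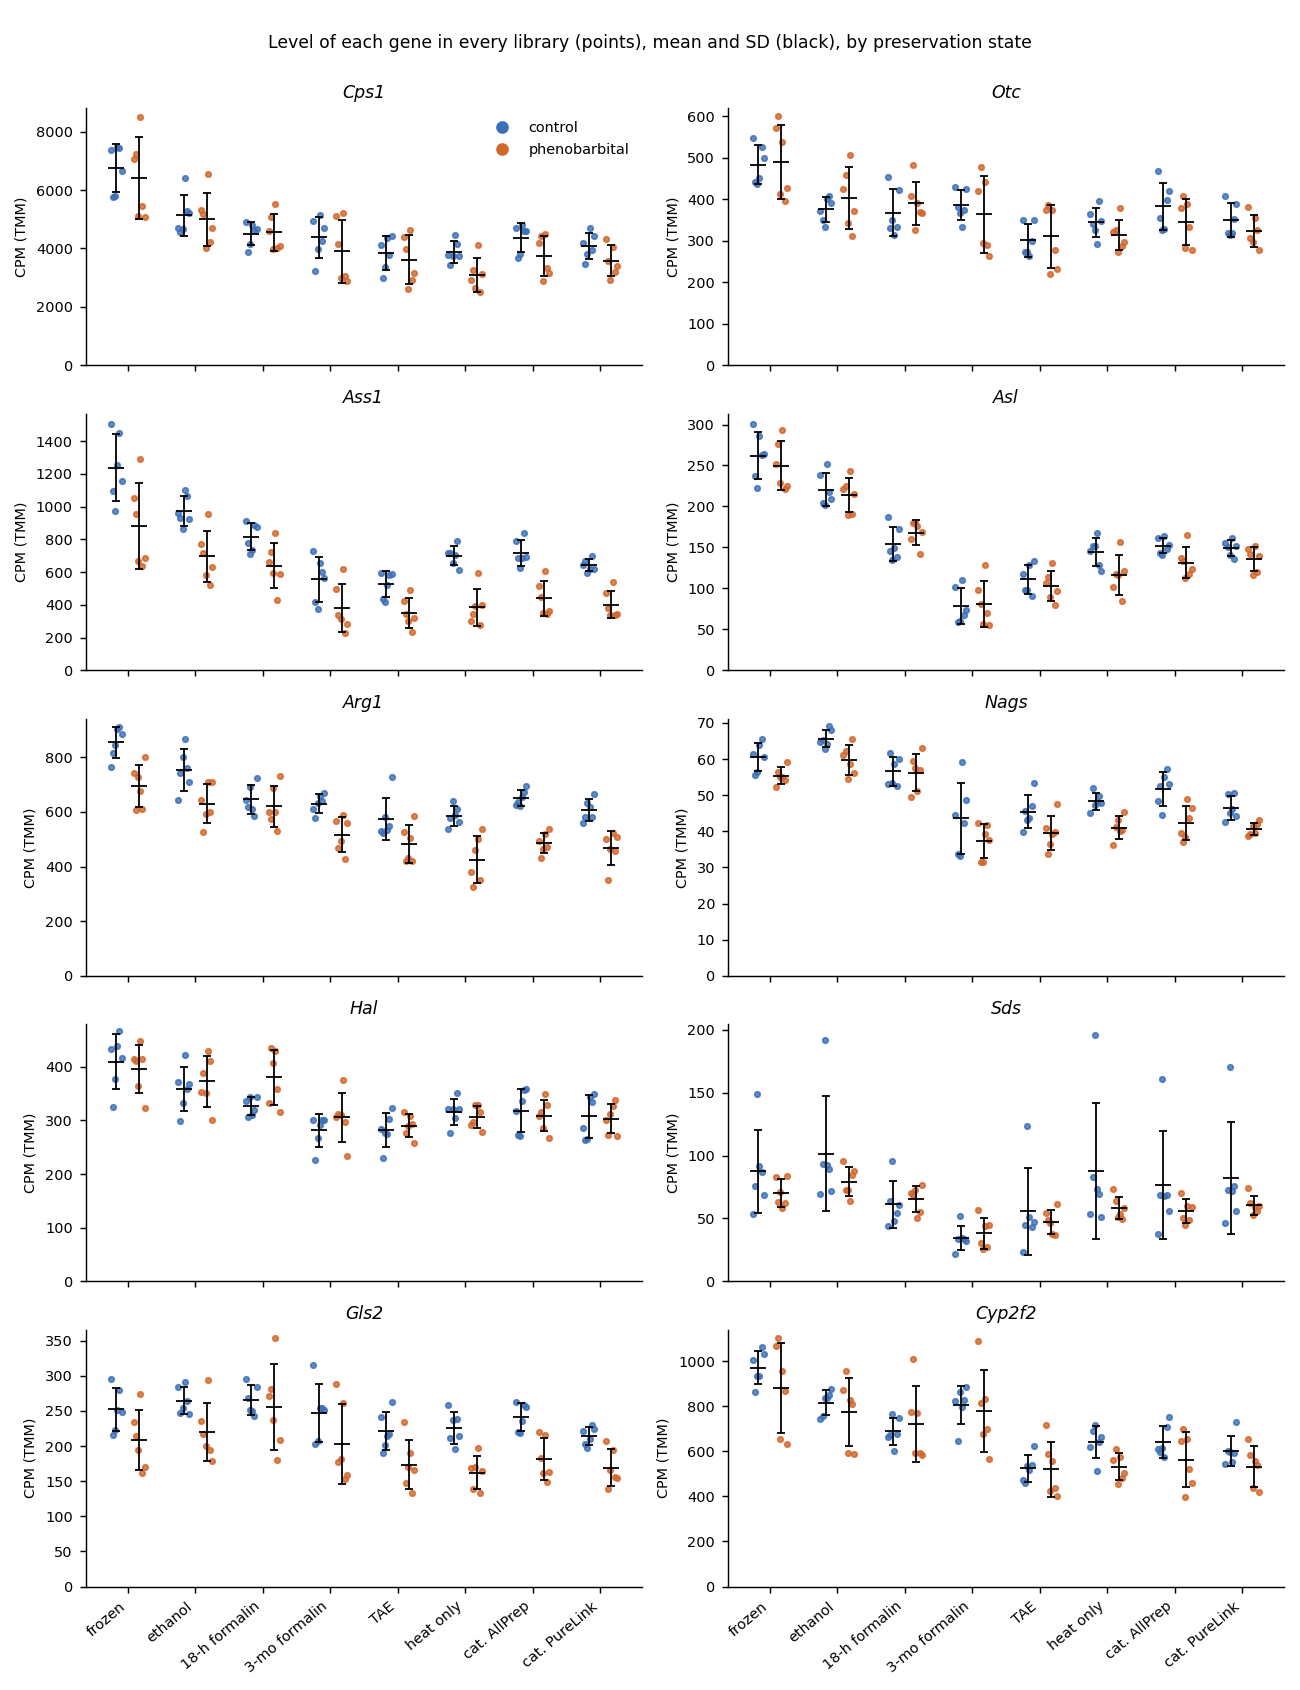
Level of each of the 10 genes in all 96 libraries, in TMM-scaled CPM on linear axes that start at 0, by preservation state. Points are libraries (blue control, orange phenobarbital), and black lines give the mean and SD of 6; Ass1 points of treated livers lie below those of controls without overlap in the heat-only and both catalyst states, and 1 control point of Sds stands far above the rest in most states.

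The first question was whether phenobarbital altered these genes, and in which states that could be seen. Ass1, the argininosuccinate synthetase gene, was lower with phenobarbital in all 8 states and passed the test in 4 of them. Arg1, the arginase gene, was lower in all 8 and passed in 4, and the glutaminase gene Gls2 was lower in all 8 and passed in 2. These counts are by edgeR, in which none of the other 7 members passed in any state and no member was called higher. DESeq2 passed Nags in heat only and AllPrep catalyst. The states share the same animals, so these are repeated readings of 6 treated and 6 control livers and not separate trials.

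Ass1 in frozen controls had 973 CPM at the lowest, 1204 at the median and 1504 at the highest. Frozen phenobarbital livers had 637, 821 and 1291 CPM. The groups overlapped, through the treated animals 18B, at 1051 CPM, and 20D, at 1291 CPM, which lie above the lowest control (8A, 973 CPM). The log2 fold change was -0.50 ± 0.17 (SE), with an adjusted p of 0.0822 in edgeR's quasi-likelihood test with Benjamini-Hochberg adjustment. Without animal 20D it passed, at -0.63 with an adjusted p of 0.0212, and DESeq2 gave -0.50 with an adjusted p of 0.0326.

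In the heat-only state Ass1 ran from 615 CPM through a median of 714 to 789 in controls. With phenobarbital it ran from 277 through 370 to 596 CPM. No treated liver reached the lowest control. The log2 fold change was -0.86 ± 0.16 (edgeR, adjusted p = 0.00491), a level 0.551 times that of controls, and it passed under all 7 alternatives. In this state mitochondrially encoded genes took 6.88% to 16.5% of counts in treated and 4.96% to 7.19% in control libraries; the part of that in the result was not tested.

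The catalyst states gave a like separation for Ass1. After AllPrep, controls had 625, 689 and 838 CPM (lowest, median, highest) and phenobarbital livers 346, 408 and 609. After PureLink, controls had 597, 631 and 697 CPM and phenobarbital livers 336, 364 and 539. Neither pair of groups overlapped. The log2 fold changes were -0.70 ± 0.14 (edgeR, adjusted p = 0.00979) and -0.67 ± 0.12 (adjusted p = 0.00442), and both passed under all 6 alternatives of each.

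In ethanol Ass1 ran from 861 through 945 to 1101 CPM in controls and from 524 through 676 to 953 with phenobarbital, with a small overlap at animal 20D. The change of -0.48 ± 0.13 passed (edgeR, adjusted p = 0.036) but not without control 21C, the ethanol library of the lowest total (-0.49, adjusted p = 0.0537) or with scaling by library totals (-0.47, 0.0559). In 18-hour formalin, 3-month formalin and TAE the log2 fold changes were -0.36 ± 0.13, -0.54 ± 0.22 and -0.59 ± 0.16, with edgeR adjusted p of 0.143, 0.295 and 0.0626. These 3 did not pass, and the TAE value passed with DESeq2 (adjusted p = 0.0128) and with edgeR without the low-count filter (0.0471).

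Arg1 in frozen controls had 765 CPM at the lowest, 866 at the median and 909 at the highest, and phenobarbital livers had 608, 702 and 800. The groups overlapped only between treated animal 80B and control 21C. The log2 fold change was -0.31 ± 0.08 (edgeR, adjusted p = 0.0343). This call rests on most of the animals: adjusted p rose above 0.05 when any of controls 8A, 8C, 8D, 82B and 90C or treated animals 18D, 20D and 75C was left out, to at most 0.0791 with a change between -0.26 and -0.32 in those fits. It was 0.0753 without the low-count filter.

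In the AllPrep catalyst state Arg1 had 622, 645 and 694 CPM in controls and 432, 483 and 537 with phenobarbital, without overlap. The change was -0.41 ± 0.08 (edgeR, adjusted p = 0.00587) and passed under all 6 alternatives. After PureLink it was -0.38 ± 0.10 (adjusted p = 0.0405), also without overlap, and in heat only -0.46 ± 0.13 (adjusted p = 0.0467). Leaving out control 8A ended both calls (adjusted p = 0.0853 and 0.104), as did, for heat only, leaving out treated animal 18D (0.0824) or 18B (0.1). The calls also ended without the low-count filter (0.0519 for PureLink, 0.0681 for heat only), with library totals for PureLink (0.0543) and with RLE scaling for heat only (0.0512). In the remaining 4 states Arg1 differed by -0.26 in ethanol, -0.07 in 18-hour formalin, -0.28 in 3-month formalin and -0.27 in TAE, with adjusted p of 0.119 to 0.744, and DESeq2 passed the ethanol value (0.0385).

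Gls2 in the heat-only state had 195, 226 and 259 CPM in controls and 133, 167 and 197 with phenobarbital. The groups touched only at the highest treated library. The log2 fold change was -0.47 ± 0.11 (edgeR, adjusted p = 0.0222), or -0.46 without control 8A (adjusted p = 0.0547). After the catalyst and AllPrep it was -0.40 ± 0.10 (adjusted p = 0.0372), or -0.39 without control 90C (adjusted p = 0.0794) and -0.32 with library totals (0.108). After PureLink it was -0.34 (adjusted p = 0.0545), which passed with DESeq2 (0.0127).

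In frozen liver Gls2 had 216, 249 and 295 CPM in controls and 162, 205 and 275 with phenobarbital, with overlap. The difference of -0.29 ± 0.12 did not pass (adjusted p = 0.156), and it did without animal 20D (-0.37, adjusted p = 0.0463). Nags was between -0.02 and -0.28 in the 8 states, with its smallest edgeR adjusted p, 0.0788, after the catalyst and AllPrep. That value passed with DESeq2 (0.032) and without control 8A (0.0481), and DESeq2 also passed the heat-only value (0.0425).

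Set against all genes, 1 of 10 members was called lower and 0 higher in frozen liver, where 3.53% of 13929 genes were called lower and 5.89% higher. In ethanol 1 member was called lower (2.16% of genes lower, 4.82% higher). There were 3 lower in heat only (1.5% lower, 3.53% higher), 3 in AllPrep catalyst (1.82% lower, 3.12% higher) and 2 in PureLink catalyst (1.44% lower, 3.21% higher). edgeR called 0 members in 18-hour formalin (1.43% of genes lower, 3.45% higher), 3-month formalin (0.446% lower, 1.66% higher) and TAE (0.941% lower, 2.35% higher). At an unadjusted p under 0.05 there were 2, 2 and 4 members in these 3, among 2626 of 13623, 1609 of 13018 and 2107 of 13822 genes. DESeq2 called 0, 0 and 1 of the members. The median log2 fold change of the 10 ran from -0.31 in heat only to 0.03 in 18-hour formalin. Over all genes the median lay between -0.01 and 0.01 in every state.

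The mitochondrial enzymes of the cycle, Cps1 and Otc, did not pass in any state. Frozen Cps1 ran from 5758 through 7020 to 7496 CPM in controls and from 5068 through 6270 to 8504 with phenobarbital, so treated livers lay on both sides of the control range. Its log2 fold change was -0.09 ± 0.14 in frozen liver, and over the 8 states it lay between -0.32 and 0.00. Otc lay between -0.14 and 0.10 and Asl between -0.31 and 0.11.

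Hal and Cyp2f2 did not pass either. Frozen Hal had 326, 424 and 467 CPM in controls and 323, 412 and 448 with phenobarbital, nearly the same span. Over the 8 states Hal lay between -0.06 and 0.21, and scaling by library totals turned its sign after both catalyst extractions (0.04 with AllPrep, 0.03 with PureLink). Cyp2f2 lay between -0.26 and 0.06, and the same scaling turned its sign in 3-month formalin and TAE (0.01 in each).

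Treated livers spread more widely than controls for several members in frozen tissue. The coefficient of variation of Cps1 was 12% in controls and 22% with phenobarbital, that of Ass1 16.6% and 29.7%, and that of Cyp2f2 7.61% and 22.9%. For Sds it was the other way round, with 37.8% in controls and 15.9% with phenobarbital. These spreads were not tested against each other.

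**Figure D2:**
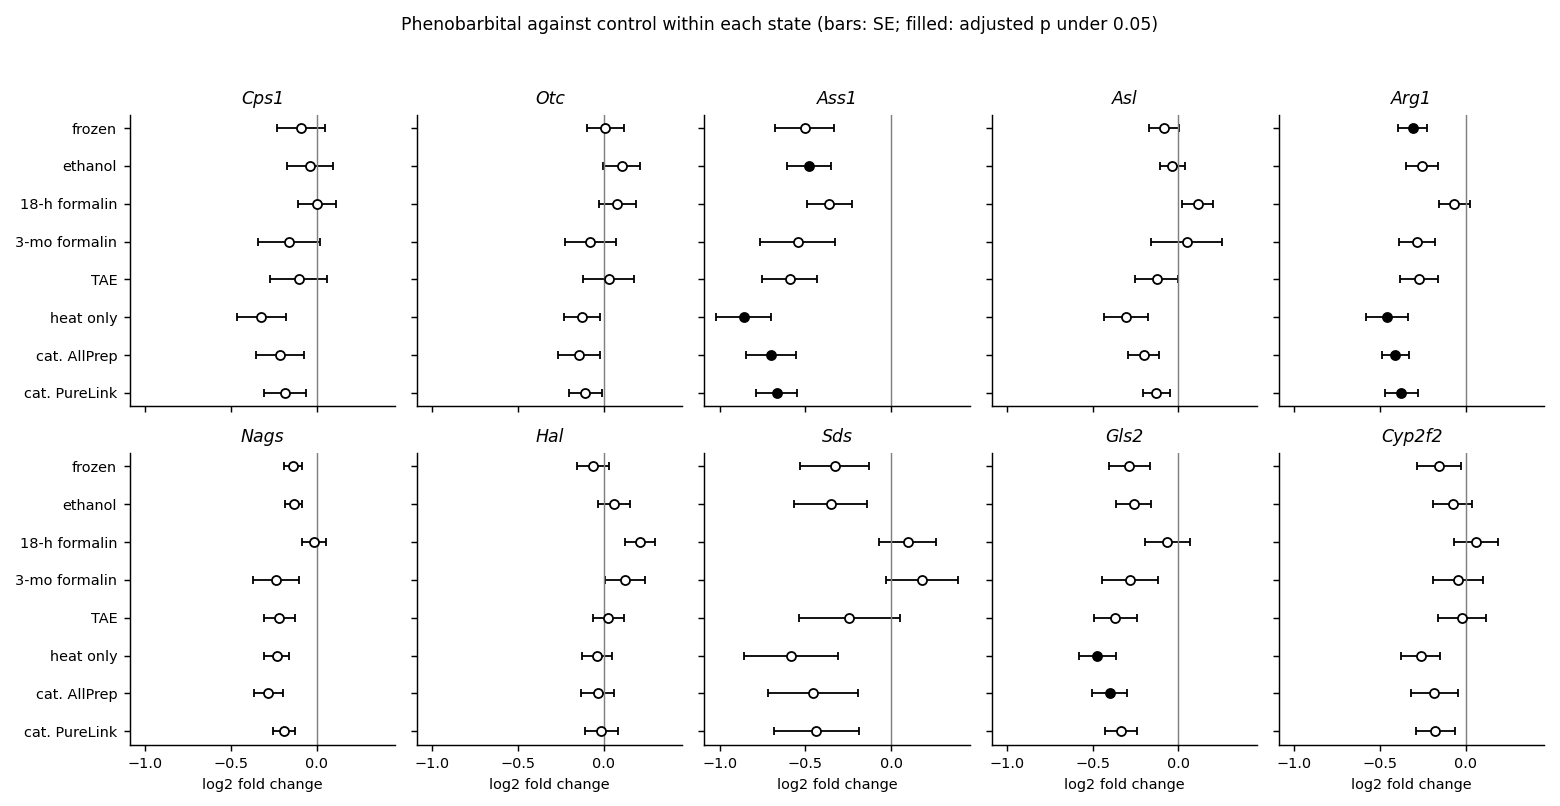
Log2 fold change of phenobarbital against control for each gene (panel) in each of 8 states (row), with bars of 1 SE. Filled points passed edgeR's test at an adjusted p under 0.05: 4 of 8 for Ass1, 4 of 8 for Arg1 and 2 of 8 for Gls2, with no filled point in the other 7 panels.

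Whether the phenobarbital difference itself changed with the state was tested by an interaction with frozen liver, over 24 libraries, in each of the 7 other states. edgeR called 0 of 10 members and 0 genes of all in each of the 7 (0% of genes called), as did DESeq2, and with the animal as a block the count of members stayed at 0. Over all genes 170 to 662 had an unadjusted p under 0.05, and the members' adjusted p in edgeR were 0.999 or above. At an unadjusted p under 0.05 there were 2 members, both in 18-hour formalin: Hal at 0.28 ± 0.13 and Arg1 at 0.25 ± 0.12. For Ass1 the interaction ran from -0.37 to 0.15. So the calls in some states and not in others are not shown to be different effects.

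Some animals held the same place in every state. Among treated livers 20D had the most Ass1 and 75C the least in 8 of 8 states, and among controls 82B had the least Cps1 in 8 of 8. Hal was lowest in treated animal 80B in 8 of 8 states. Other places were not held: the highest frozen control for Arg1, 8D, was highest in 1 of 8 states, and the lowest frozen treated liver for Cps1, 80B, was lowest in 2 of 8. These orders describe single livers measured repeatedly.

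Values of cell type markers moved beside the phenobarbital results. The 5 hepatocyte markers summed to 98074, 108213 and 117997 CPM (lowest, median, highest) in frozen controls and to 75842, 82368 and 101430 with phenobarbital, with 0 of 5 called in edgeR. In heat only the sums were 61372, 64525 and 71642 CPM in controls and 36260, 42913 and 56874 with phenobarbital, without overlap, and 1 of 5 was called lower. They did not overlap in the catalyst states either: 64266 to 83910 CPM in controls and 50732 to 59717 with phenobarbital after AllPrep, with 0 of 5 called, and 60198 to 73042 and 39174 to 57045 after PureLink, with 1 of 5 called lower. Of 6 macrophage markers, none at 0, the sums in heat only were 119 to 347 CPM in controls and 159 to 446 with phenobarbital, and 0 were called. In AllPrep catalyst 1 of these 6 was called higher. Of 6 endothelial markers, 1 was called higher in heat only and in AllPrep, and 2 in 3-month formalin and in TAE. The part of these in the results was not tested. In bulk tissue, fewer cells of a type and less RNA per cell cannot be told apart.

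Genes that feed or surround the cycle were counted in frozen liver by 5 lists, where 5.89% of all genes were called higher and 3.53% lower. Of 19 tested genes for carriers and for ammonia, aspartate and bicarbonate supply, 1 rose and 5 fell, with a list median of -0.16. Slc25a22, a mitochondrial glutamate carrier, fell from 106 to 48 CPM (-1.16 ± 0.14, edgeR adjusted p = 0.000149). The amino acid transporter genes Slc38a4 (-0.52 ± 0.12), Slc7a2 (-0.50 ± 0.12) and Slc38a3 (-0.47 ± 0.07) also fell. Glud1, the glutamate dehydrogenase gene, and Slc25a15, the ornithine carrier, were not called (-0.27 and -0.08). Slc25a22 was called lower in all 8 states, between -1.02 and -1.18.

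Of 13 other periportal markers 2 fell and none rose, with a median of -0.12. Pck1, the gluconeogenic PEPCK gene, fell from 2267 to 880 CPM (-1.38 ± 0.21, edgeR adjusted p = 0.00132) and was called lower in all 8 states. Pigr, the polymeric immunoglobulin receptor, fell by 0.30 on the log2 scale, while Fbp1 (-0.36), a gluconeogenic phosphatase gene, was not called. Of these 13 genes, 11 did not pass.

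Among 19 genes of amino acid breakdown 3 fell and 0 rose, with a median of -0.05. These were Tat, the tyrosine aminotransferase gene (-0.60 ± 0.15), Mat1a, which makes S-adenosylmethionine (-0.59 ± 0.14), and Cbs, which makes cystathionine (-0.50 ± 0.09). Tdo2 (0.11) and Hpd (0.29) were not called. Uroc1, Amdhd1 and Ftcd, which act after Hal in histidine breakdown, were at -0.01, -0.18 and -0.05 and were not called.

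Of 11 pericentral markers, from the zone around the central vein where glutamine synthesis takes up remaining ammonia, 1 rose and 3 fell, with a median of -0.28. Cyp1a2, a P450 gene, rose from 413 to 1261 CPM (1.60 ± 0.14). Glul, the glutamine synthetase gene, fell by 0.47 on the log2 scale (adjusted p = 0.00578), Slc1a2, a glutamate transporter gene, by 0.67 and Lgr5 by 1.01. Cyp2e1 (0.28) and Rgn (-0.06) were not called. Of 11 regulators 3 fell: Ppara (-0.82 ± 0.15), Hnf4a (-0.25 ± 0.06) and Foxo1 (-0.25 ± 0.07). Cebpa and Nr3c1, the glucocorticoid receptor gene, were at -0.10 and -0.06 and were not called.

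The second question was how preservation altered the measured levels. In every preserved state most members read lower than in frozen liver, by median over the states the cycle enzymes Ass1 (-1.02), Asl (-0.84) and Cps1 (-0.68) by the most and Gls2 (-0.11) by the least. Of 70 member values, 10 in each of 7 states, 54 were called lower and 1 higher. That fit had treatment as a covariate and did not pair libraries of the same animal. With the animal as a block, 9 or 10 members were called in each state, in either direction. All comparisons share the frozen libraries. The RNA extraction kit of the ethanol, both formalin and TAE states is not given in the sources used here. Whether extraction in those states differed from that of frozen liver is therefore unknown. Any difference in extraction between frozen and preserved states cannot be told apart from preservation here.

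In ethanol 4 of 10 members were called lower (15.8% of genes called lower) and 1 higher, Nags (17% of genes called higher). In 18-hour formalin 7 were called lower (20.6% of genes lower, 20.5% higher), in 3-month formalin 8 (28.7% lower, 31.8% higher) and in TAE 9 (27.4% lower, 31.6% higher). In heat only 9 were called lower (28.6% lower, 28.4% higher), in AllPrep catalyst 8 (22.6% lower, 27.8% higher) and in PureLink catalyst 9 (27.7% lower, 31.5% higher). The members' median log2 fold change was -0.17, -0.34, -0.45, -0.62, -0.61, -0.42 and -0.53 in that order, against a median over all genes of -0.01 to 0.04. With the animal as a block the called members in ethanol numbered 10, where 7370 of 13908 genes were called. The block added Arg1 (-0.14, adjusted p = 0.000222), Hal (-0.12, 0.000713) and Cyp2f2 (-0.19, 5.91e-07) as lower and Sds (0.21, 9.43e-06) and Gls2 (0.10, 0.00242) as higher.

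Scaling by library totals alone moves the median of all genes against frozen up to 0.18 in 18-hour formalin, 0.26 in TAE, 0.27 in heat only, 0.25 in AllPrep and 0.30 in PureLink catalyst. Under that scaling the called members number 5 in AllPrep catalyst and 2 in ethanol. The shares of all genes given above are from TMM scaling and do not apply to these counts. This other scaling turned 18-hour formalin Nags from -0.04 to 0.14, with an edgeR adjusted p of 0.00618. It also ended the calls of Otc, Ass1 and Asl in ethanol, of Otc, Arg1, Hal and Cyp2f2 in 18-hour formalin, of Sds in TAE, of Hal in heat only, of Otc, Nags and Hal in AllPrep and of Hal in PureLink catalyst, and it passed Gls2 as higher in 18-hour formalin (0.36, 0.00323).

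Asl, which encodes argininosuccinate lyase, showed the largest fall of any member. It read 223 to 301 CPM in frozen controls and 58.8 to 110 in 3-month formalin controls, with medians of 263 and 70.7. Treated livers read 222 to 294 and 55.8 to 129 CPM, with medians of 240 and 75.2. In both treatments every 3-month formalin library lay below every frozen one. The log2 fold change was -1.64 ± 0.12 (edgeR, adjusted p = 7.4e-12), a level 0.321 times that of frozen tissue, and Asl was lower in 12 of 12 animals. It was -0.67 ± 0.06 after 18 hours in formalin and -0.21 ± 0.06 in ethanol.

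Ass1 in 3-month formalin read 373, 582 and 731 CPM in controls and 231, 328 and 617 in treated livers, below the frozen values given earlier in both treatments. Its fall against frozen was -1.15 ± 0.15 there (edgeR, adjusted p = 1.57e-07) and -1.26 ± 0.12 in TAE, against -0.32 ± 0.11 in ethanol. Without animal 21C, that of the ethanol library with the lowest total, the ethanol value was -0.30 (adjusted p = 0.0531).

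Cps1 in 3-month formalin read 3223, 4486 and 5133 CPM in controls and 2895, 3611 and 5225 in treated livers. Controls did not reach the frozen controls, while the highest treated library passed the lowest frozen treated one. Its fall ran from -0.35 ± 0.09 in ethanol to -0.94 ± 0.10 in heat only and was called in 7 of 7 states. Otc was called lower in 7 of 7 states too, from -0.30 to -0.65. Arg1 was called in 6 of 7, with -0.14 in ethanol and -0.29 to -0.64 in the others.

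Sds, the serine dehydratase gene, showed a different pattern over states. Controls in 3-month formalin read 21.9, 33.8 and 51.7 CPM, against 53.1, 81.3 and 149 in frozen tissue. Treated livers read 25.7, 37 and 56.3 CPM against 58.3, 66.8 and 83.9. Neither treatment overlapped between the states. The change was -1.11 ± 0.16 (edgeR, adjusted p = 8.42e-07). In heat only and both catalyst states it was -0.15 to -0.25 and not called, and with the block it passed in heat only (-0.19, adjusted p = 0.0141), AllPrep (-0.28, 6.91e-05), PureLink (-0.17, 0.00216) and 18-hour formalin (-0.30, 0.000112). Scaling by library totals turned Sds to 0.11 in heat only and 0.12 in PureLink, neither of them called.

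Gls2 changed least. It read 203, 252 and 316 CPM in 3-month formalin controls, overlapping the frozen range of 216 to 295, and its change was -0.00 ± 0.10. It was called lower only in heat only (-0.27 ± 0.08) and PureLink catalyst (-0.26 ± 0.08), and under library totals neither passed (-0.02 and 0.01), the sign turning in 3-month formalin, TAE, AllPrep and PureLink. With the block Gls2 passed as higher in 18-hour formalin (0.18, adjusted p = 0.000303) and as lower in TAE (-0.21, 0.000752) and AllPrep (-0.10, 0.0135). The TAE value also passed with DESeq2 (-0.22, 0.0327) and with RLE scaling (-0.22, 0.0395).

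Cyp2f2 differed little in 3-month formalin itself, with 648, 824 and 883 CPM in controls against 864, 972 and 1061 frozen. Its change there was -0.19 ± 0.10 (edgeR, adjusted p = 0.0891). Cyp2f2 passed there with the block (-0.19, adjusted p = 0.00133), with DESeq2 (-0.21, 0.0482) and without the low-count filter (-0.29, 0.019). In the 4 states made from that tissue it was called lower, by -0.60 to -0.80. Hal was called lower in 6 of 7 states, from -0.20 to -0.47, with 225.9, 296 and 301 CPM in 3-month formalin controls.

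Nags, the lowest of the 10 in frozen liver, was the one member called higher against frozen in edgeR without the block. In ethanol controls it read 62.8, 65.1 and 69.2 CPM against 55.5, 61 and 65.6 in frozen ones, with overlap. The change was 0.14 ± 0.03 (edgeR, adjusted p = 0.00311), and 10 of 12 animals were higher. In 3-month formalin it was -0.48 ± 0.07, lower in 12 of 12.

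**Figure D3:**
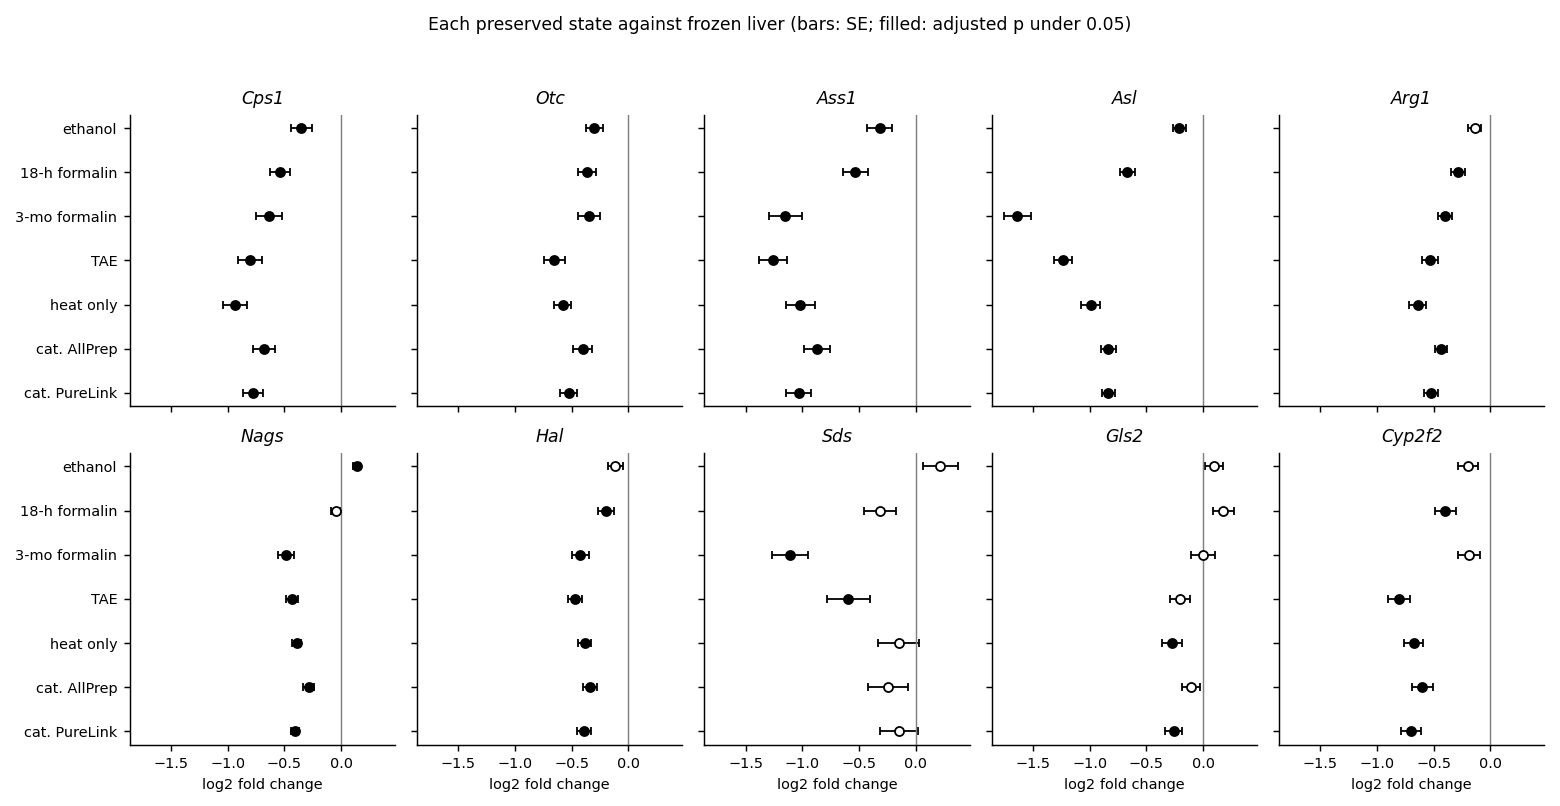
Log2 fold change of each gene (panel) in 7 preserved states against frozen liver, over 12 animals with treatment as a covariate, with bars of 1 SE and filled points for adjusted p under 0.05. Asl, Ass1 and Sds reach -1.64, -1.15 and -1.11 in 3-month formalin. Gls2 lies between -0.27 and 0.18, with filled points in heat only and PureLink catalyst. Its sign turns in 4 states if libraries are scaled by totals alone.

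Other genes around the cycle were counted against frozen liver in the same way, in 3-month formalin, where 31.8% of all genes were called higher and 28.7% lower. Of 19 genes of amino acid breakdown 18 were called lower and 0 higher, with a median of -0.62. The largest falls were those of Hpd (-1.31 ± 0.12), Gnmt (-1.30 ± 0.14), Sdsl (-1.14 ± 0.18) and Fah (-1.05 ± 0.07), and Mat1a was not called (-0.02). Of 19 supply and carrier genes 5 were called higher and 8 lower, among them Gpt (-1.45 ± 0.10), Mdh1 (-1.27 ± 0.11), Fh1 (-1.07 ± 0.08) and Sirt5 (-0.88 ± 0.13). Slc38a4 (0.14) and Aqp9 (-0.05) were not called.

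Of 11 regulators 7 were called higher and 3 lower, with a median of 0.32; the share lower is near that of all genes. Foxo1 rose by 0.92 ± 0.06, Cebpa by 0.55 ± 0.08 and Nr3c1 by 0.54 ± 0.05, while Nr1i3, the CAR gene, was lower (-0.53 ± 0.16). Foxa2 was not called (0.21). Of 13 other periportal markers 1 rose, Sox9 (0.89 ± 0.21), and 8 fell, the most Apoa4 (-1.37 ± 0.14), Aldh1b1 (-0.94 ± 0.11) and Fbp1 (-0.84 ± 0.11), with G6pc (0.04) and Cdh1 (0.10) not called. Of 11 pericentral markers 2 rose and 3 fell, with Oat (-1.21 ± 0.15), Tbx3 (0.69 ± 0.19), Cyp2e1 (-0.49 ± 0.09) and Cyp1a2 (-0.48 ± 0.09) the largest, while Glul (-0.02) and Rgn (-0.20) were not called.

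Hepatocyte markers moved with these falls. In 3-month formalin 4 of 5 were called lower, with a list median of -0.95, and their sum in controls was 62717, 77370 and 88520 CPM against 98074, 108213 and 117997 frozen. Macrophage markers were lower in 3 of 6 and endothelial ones higher in 2 and lower in 2 of 6. Of all genes 31.8% were called higher and 28.7% lower in this state, so the endothelial shares are near those of all genes. The mitochondrially encoded share was 2.57% ± 0.405 (SD, n = 12) of counts in frozen and 9.92% ± 2.41 in 3-month formalin libraries. The part of these in the results was not tested.

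The third question was whether the added treatments moved the members away from 3-month formalin. Asl was higher in all 4: by 0.41 ± 0.13 in TAE, 0.70 ± 0.13 in heat only, 0.81 ± 0.12 in AllPrep and 0.84 ± 0.12 in PureLink catalyst, and in 12 of 12 animals each time. Medians in controls were 108, 148, 151 and 151 CPM, against 70.7 in 3-month formalin and 263 in frozen liver. Sds was called higher in heat only (1.01 ± 0.20), AllPrep (0.87 ± 0.19) and PureLink (0.996 ± 0.18), in 12 of 12 animals each, and its TAE value of 0.53 ± 0.19 was not called (adjusted p = 0.0612). That value passed with the block (0.43, 0.000185), DESeq2 (0.51, 0.0426), library totals (0.71, 0.0082) and no low-count filter (0.54, 0.0469). Cyp2f2 was called lower in all 4, by -0.60, -0.43, -0.40 and -0.47 in the order just given.

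In numbers, TAE had 1 member higher (7.89% of genes called higher) and 1 lower (9.42%). Heat only had 2 higher (23.5%) and 1 lower (23.3%). AllPrep catalyst had 3 higher (23.8%), Nags among them (0.21 ± 0.08, edgeR adjusted p = 0.0338), and 1 lower (23.6%). PureLink catalyst had 2 higher (30.8%) and 2 lower (29%), the second being Gls2 (-0.22 ± 0.10, adjusted p = 0.0451), which did not pass without the animal of the lowest total, 8A (-0.23, adjusted p = 0.0506), without the low-count filter (-0.21, 0.0907) or with library totals (-0.03, 0.82). Library totals also ended the Cyp2f2 call after AllPrep (-0.23, 0.063).

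With the block the TAE count of 2 became 7 and the heat-only count of 3 became 8. Of all genes the block called 4583 of 13296 in TAE and 7420 of 13283 in heat only. In TAE the block added Cps1 (-0.14, adjusted p = 0.0176), Otc (-0.29, 8.99e-06), Arg1 (-0.12, 0.0311) and Gls2 (-0.18, 0.00482) as lower. In heat only it added Cps1 (-0.23, 0.0104), Otc (-0.17, 0.0188), Arg1 (-0.20, 0.00655) and Gls2 (-0.20, 0.0108) as lower and Ass1 (0.22, 0.0481) as higher. Ass1 was also called higher with the block after AllPrep (0.33, 5.42e-05) and PureLink (0.19, 0.0149), and Otc lower after PureLink (-0.13, 0.0424). Without the block, library totals turned several signs. In TAE these were Cps1 (0.02), Ass1 (0.08), Arg1 (0.06) and Hal (0.14), none of them called. After PureLink they were Cps1 (0.09), Otc (0.05) and Arg1 (0.10), none called. After AllPrep Cps1 (0.13), Otc (0.12) and Gls2 (0.07) turned without a call. Arg1 turned there to 0.14 and was called higher (edgeR, adjusted p = 0.0446). The same scaling called Hal and Ass1 higher in heat only, AllPrep and PureLink, and Nags higher in TAE, heat only and PureLink. It moves the median of all genes against 3-month formalin up to between 0.18 and 0.23.

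Catalyst against heat alone, both with AllPrep, gave 0 members called in edgeR (0.891% of all genes called) and 0 in DESeq2. At an unadjusted p under 0.05 there were 2 members, among 1848 of 13807 genes. With the block 1930 of 13807 genes were called. Among them were 4 members, all higher with catalyst: Cps1 (0.22, adjusted p = 0.00649), Arg1 (0.18, 0.00872), Otc (0.14, 0.0325) and Gls2 (0.13, 0.0471). PureLink against AllPrep after catalyst also gave 0 called (2.32% of genes), 0 at an unadjusted p under 0.05 (3405 of 14124 genes) and 0 in DESeq2. With the block 6 members were called, among 5207 of 14124 genes. Ass1 (-0.14, adjusted p = 0.000562), Gls2 (-0.13, 0.00198), Otc (-0.10, 0.0186), Arg1 (-0.08, 0.0329) and Nags (-0.10, 0.0377) were lower with PureLink, and Sds (0.12, 0.00359) was higher. In size, the blocked differences of both comparisons were at most 0.22, that of Cps1.

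Between the formalin times, 5 members were lower after 3 months than after 18 hours (23% of genes called lower and 22.3% higher): Asl (-0.997 ± 0.12), Sds (-0.83 ± 0.14), Ass1 (-0.65 ± 0.14), Nags (-0.47 ± 0.08) and Hal (-0.26 ± 0.07). The block made this 8, among 7119 of 13214 genes called. It added Arg1 (-0.14, adjusted p = 0.0315) and Gls2 (-0.22, 0.00484) as lower and Cyp2f2 (0.17, 0.0161) as higher.

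Sds differed between control livers more than any other member. Control 8A had 149 CPM in frozen tissue against 53.1 to 91.5 in the other 5 controls, and it was the highest control in 8 of 8 states. It had 192 CPM in ethanol and 196 in heat only, where the next control had 93.5 and 83.2. Control 21C was lowest in 7 of 8 states. Treated livers lay within 58.3 to 83.9 CPM in frozen tissue. The phenobarbital difference for Sds ran from -0.59 to 0.18 over the states, none of it called. Without 8A the values moved from -0.59 to -0.18 in heat only, from -0.33 to -0.10 in frozen liver, from -0.35 to -0.07 in ethanol, from -0.45 to -0.10 in AllPrep and from -0.44 to -0.09 in PureLink catalyst. In TAE the sign turned, from -0.24 to 0.17. In 18-hour and 3-month formalin they moved from 0.10 to 0.27 and from 0.18 to 0.30. None was called without 8A either.

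**Figure D4:**
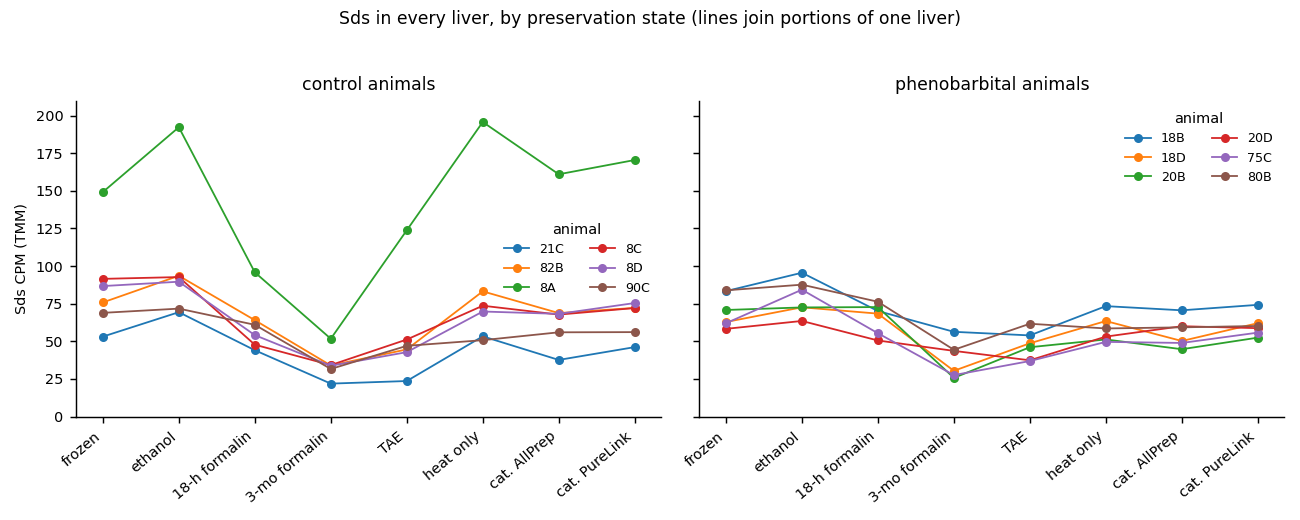
Sds level in CPM in each control (left) and phenobarbital (right) animal over 8 states, with lines that join portions of 1 liver. Control 8A lies above the other controls in every state, at 149 CPM in frozen and 196 in heat-only tissue, and 12 of 12 animals lie lower in 3-month formalin than in frozen tissue.

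Over the 16 group means of log2 CPM, the members most alike were Ass1 and Arg1 (Pearson r = 0.94) and Cps1 and Otc (0.93), and the least alike were Sds and Cyp2f2 (0.25). Among 10191 genes of at least 5 CPM, the closest to Cps1 were C8b (0.98), Drg2 (0.98) and Cfi (0.98). Hal was closest to Sec13 (0.97), Eno1 (0.96) and Clpp (0.96), and for Cyp2f2 the second and the third closest were H2-K1 (0.96) and Gc (0.94). The 16 points share 12 animals and the preservation states, so these are descriptions of pattern only.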

How the data were processed

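Deposited raw counts per Ensembl gene, whole numbers and not normalized by the authors, from strand-specific, ribosomal RNA-depleted libraries (per the labels' protocols) were the basis of every value. The submitters' processing notes name CASAVA, STAR 2.5, edgeR, GRCm38 and mm10 without roles; the counting tool is not given in the sources used here. The table's 92 spike-in lines (110 counts) were left out. Symbols, coordinates and exon lengths come from GENCODE M21 (GRCm38), which matched 46954 of 47373 genes. Groups came from the sample titles.

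The members and the 5 lists were chosen with earlier results of these data known. All 10 members are named in each comparison, and per list up to 4 called genes of largest change and 2 uncalled ones of highest level. The likeness rule took the 3 closest genes to Cps1, Hal and Cyp2f2. One gene that these rules name is not reported here.

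Tests used edgeR 4.0.16 in R 4.3.3 (quasi-likelihood F test, TMM, default low-count filter with a minimum count of 10, Benjamini-Hochberg adjustment over all genes at 0.05); each SE was obtained from the fold change and the F statistic as |log2FC|/√F. There were 8 phenobarbital, 14 state and 7 interaction comparisons. Titles give the animal, which pairs libraries across states: over 10191 genes, deviations of same-animal libraries correlated above 0.1 in 336 of 336 pairs (median 0.68, against -0.05 for other animals). Alternatives were DESeq2 1.42.0, RLE scaling, library totals, no filter, the animal as a block, and libraries left out. On simulated counts of 13807 genes, the frozen phenobarbital test recovered 60.9% of 64 changes of 1.5-fold and 88.2% of 68 of 2-fold. The 3-month formalin test, on 12827 genes, recovered 20.8% of 72 and 58.1% of 62. The interaction test of 3-month formalin with frozen liver, on 14110 genes, recovered 14% of 57 and 57% of 79 such changes. Simulated libraries were drawn independently, without animals shared between states.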

Additional observations from a re-analysis of the deposited data

Results flagged for a closer look

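Each member's 6 libraries were checked in all 16 groups for 1 value far from the others, by its gap to the nearest one as a share of the group's range, 160 checks in all. About 1 in 20 such checks would give a flag by chance, and 8 did. The 5 flags on Sds are the same liver, control 8A: 192 CPM in ethanol (next 93.5), 124 in TAE (next 51.2), 196 in heat only (next 83.2), 161 in AllPrep catalyst (next 68.7) and 170 in PureLink catalyst (next 75.4). Arg1 stood at 728 CPM in control 90C in TAE, where the next control had 581. Cyp2f2 stood at 730 CPM in the same animal after PureLink, with the next control at 602. In 3-month formalin controls Cyp2f2 was 648 CPM in animal 82B, below the next lowest at 796.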

How the results depend on the processing

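The shallowest library, control 8A in 3-month formalin, held 1264563 counts, and without it the members called there under phenobarbital were still 0. The number of members called under phenobarbital in frozen liver, 1, became 2 with DESeq2 and 0 without the filter or the library of the lowest total, and 0 to 2 with 1 animal left out. In ethanol, 1 became 2 with DESeq2 and 0 with library totals or without the library of the lowest total. In TAE, 0 became 1 with DESeq2 and without the filter. In heat only, 3 became 1 without control 8A, and in PureLink catalyst 2 became 1 without 8A, without the filter and with library totals. Against frozen, library totals gave 2 in ethanol and 5 in AllPrep catalyst, and the replicate block gave 10 in ethanol. Calls of the block over all genes are given with the results above. Against 3-month formalin, DESeq2, library totals and the block gave 4, 4 and 7 in TAE and 5, 6 and 8 in heat only. The block gave 4 for catalyst against heat only, 6 for PureLink against AllPrep and 8 for the formalin times. It ended no call and turned no sign among the results of the members; its added calls stand beside the results. The cause of these moves was not tested.

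Of the phenobarbital values and those against frozen, signs turned in those that follow, of which Gls2 in PureLink against frozen had been called (-0.26). Frozen Otc (0.0074) ran from -0.045 to 0.072 with 1 animal left out, and was -0.012 without the library of the lowest total. Without that library the phenobarbital values became -0.022 for Cps1 in 18-hour formalin, -0.00058 for Asl in 3-month formalin (both libraries are control 8A), -0.027 for Otc in TAE and 0.018 for Hal after PureLink. Without control 8A, Sds in TAE became 0.17. With library totals, phenobarbital values became 0.0092 for Cyp2f2 in 3-month formalin, 0.0077 in TAE, 0.042 for Hal with AllPrep and 0.035 with PureLink. Against frozen they became 0.14 for Nags in 18-hour formalin, 0.033, 0.016, 0.099 and 0.0053 for Gls2 in 3-month formalin, TAE, AllPrep and PureLink, and 0.11 and 0.12 for Sds in heat only and PureLink. Signs that library totals turned against 3-month formalin are given with those results. That scaling also turned Hal to -0.0040 in catalyst against heat only and to 0.0057 in PureLink against AllPrep. Between the formalin times Otc turned to 0.0013 with DESeq2 and 0.0014 with RLE scaling. Of 600 phenobarbital member values under alternatives 549 kept direction and side of the threshold, and of 420 against frozen 378 did. The fits without control 8A outside frozen liver and without the heat-only library of the highest mitochondrial share were chosen after seeing the data.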
